A study of Mus musculus with 4 samples.

Results

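The genes described here encode 10 neuropeptide precursors of the forebrain: Sst, Npy, Vip, Cck, Penk, Tac1, Tac2, Pdyn, Cartpt and Adcyap1. They were chosen by symbol from the 32285 genes of the count files, and all 10 were found and detected in every section. They were measured by Visium, which counts polyadenylated RNA as unique molecular identifiers (UMIs) on an array of barcoded spots under a tissue section. The series holds 4 coronal sections of 10 µm at the level of the dorsal hippocampus, each from 1 male mouse, with 2 trained and 2 untrained mice. All 4 mice carried ArcCreERT2::eYFPflx on a C57BL/6 background and were 3 to 4 months old. The Arc promoter drives a tamoxifen-dependent Cre in this line, so that neurons active around the injection express eYFP. Trained mice had 4 active place avoidance trials in a rotating arena with a shock zone. Untrained mice spent the same time in the arena with the shock off. All mice received 4-hydroxytamoxifen before the retention test, and brains were taken 3 days after it.

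Neuropeptides are cut from larger precursors, stored in dense-core vesicles and released to act mostly on G protein-coupled receptors, usually beside a fast transmitter. In the cortex and hippocampus somatostatin, neuropeptide Y and vasoactive intestinal peptide mark separate or partly overlapping classes of GABA interneurons, while cholecystokinin is made by both interneurons and excitatory neurons. In the striatum enkephalin belongs to medium spiny neurons of the indirect pathway, and substance P and dynorphin to those of the direct pathway.

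The genes lie on 8 chromosomes, since Npy and Tac1 share chromosome 6 and Vip and Tac2 share chromosome 10, with Sst on 16, Cck on 9, Penk on 4, Pdyn on 2, Cartpt on 13 and Adcyap1 on 17. Positions follow GRCm38 with GENCODE annotation. Sst, with 2 exons, spans chr16:23889573-23890958 on the minus strand. Npy, with 4 exons, spans chr6:49822710-49829507 on the plus strand. Penk spans chr4:4133531-4138819 on the minus strand and overlaps the antisense gene A830012C17Rik. No counted gene overlaps any of the other members.

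The next sequences are shown because several of these genes are textbook targets of cAMP and neuronal activity through the cAMP response element, whose palindrome is TGACGTCA. RefSeq promoter windows of GRCm38.p6 were at hand for 9 of the 10 members, all but Penk. The 250 bases before the RefSeq start held TGACGTCA, on either strand, in Sst and Cartpt. The shorter TGACGTC, which is contained in the palindrome, was found on either strand in Sst, Vip, Cartpt and Adcyap1. Among all 32851 windows 1.55% held the palindrome and 2.78% the shorter form. The matches are given with their flanks, 5′ to 3′ on the strand of the gene and with the matching letters in capitals, at chr16:23890874-23890903 (Sst), chr10:5639128-5639157 (Vip), chr13:99900777-99900806 (Cartpt) and chr17:93198915-93198944 (Adcyap1).
Sst: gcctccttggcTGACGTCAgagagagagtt
Vip: gatcactactgTGACGTCtttcggggagcc
Cartpt: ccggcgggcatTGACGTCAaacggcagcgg
Adcyap1: gactaggatgcTGACGTCttttactgatac
The match began 48 bases before the RefSeq start in Sst, 79 in Vip, 112 in Cartpt and 91 in Adcyap1. The GENCODE genes of Sst and Cartpt begin further upstream, so that 114 (Sst) and all 250 (Cartpt) of these bases lie in their exons and both matches fall inside the annotated gene. The whole stretch of 250 bases is shown for Vip (chr10:5638968-5639217) and Adcyap1 (chr17:93198767-93199016), where it lies outside the exons of the gene.
Vip: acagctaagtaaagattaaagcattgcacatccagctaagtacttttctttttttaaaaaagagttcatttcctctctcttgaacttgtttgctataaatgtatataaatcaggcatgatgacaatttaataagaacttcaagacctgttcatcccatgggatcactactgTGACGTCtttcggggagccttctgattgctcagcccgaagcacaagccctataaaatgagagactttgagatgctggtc
Adcyap1: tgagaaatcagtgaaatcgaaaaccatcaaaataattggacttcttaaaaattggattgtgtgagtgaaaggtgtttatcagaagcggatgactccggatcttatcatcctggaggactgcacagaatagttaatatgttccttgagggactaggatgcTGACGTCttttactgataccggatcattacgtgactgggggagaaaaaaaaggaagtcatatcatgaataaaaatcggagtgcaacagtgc
A match of letters is a description of the window only, and factor binding was not measured.

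The sections held 2359 to 3055 spots under tissue and 3560294 to 10330015 UMIs, with medians of 1048 to 2493 UMIs per spot. Untrained 1 was the shallowest and held the fewest spots assigned to cortex (388, against 763, 599 and 522 in trained 1, trained 2 and untrained 2). A spot covers several cells. Although the tissue is labelled hippocampus, each section held most of a hemisphere, and 238 to 261 spots per section were hippocampal. Spots were assigned to regions by lists of marker genes that contain no member, and 12 regions with at least 20 spots in every section were compared. Each list was highest in its own region, which the assignment by these same lists makes nearly certain. The CA3 and hypothalamic spots had 0 of their own markers among their 10 leading genes by fold, and were led by Cabp7 and Neurod6, and by Hcrt, Pmch and Oxt. The white matter spots were led by Spp1, Six3 and Pvalb. Between 15.4% and 23.2% of spots stayed unassigned. Levels are counts per 1000000 UMIs of the same spots (CPM), in the order trained 1, trained 2, untrained 1, untrained 2. In such sums fewer cells of a type and less RNA per cell cannot be told apart. Shares of spots with a UMI are given after thinning each spot to 500 UMIs, which left out 226 to 538 shallower spots per section.

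The opioid and tachykinin precursors Penk, Tac1 and Pdyn were each highest in the striatal spots of all 4 sections. Penk, the enkephalin precursor, stood at 2432, 2357, 1495 and 2149 CPM in the striatum (2108 ± 426, SD, n = 4). In the thalamus Penk stood at 67.3, 36.2, 76.7 and 38.0 CPM. All 4 striatal values lay above every value of the next region, the amygdala and cortical subplate (666, 443, 404 and 304 CPM). At 500 UMIs per spot, 65.4%, 62.0%, 55.2% and 63.6% of striatal spots held a Penk UMI, against 3.44%, 1.77%, 2.38% and 3.67% of thalamic spots. The exact 95% interval was widest for the striatum of untrained 1 (41.5% to 68.3%), and such intervals cover counting error only. The striatal spots, 3.16% to 6.7% of spots, held between 18.9% and 57.6% of all Penk UMIs of a section. Against the mean of the other regions Penk was higher in the striatum by 4.27 on the log2 scale (SE 0.09, adjusted p = 3.49e-57, edgeR's quasi-likelihood test over 48 sums of region and section with the section as a block). Region sums of a section come from 1 library, so these p-values rest on 4 mice.

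Tac1, the precursor of substance P and neurokinin A, stood at 495, 726, 464 and 575 CPM in the striatum. Its next region was the hypothalamus, at 111, 158, 154 and 243 CPM. The 2 regions did not overlap, and striatal Tac1 was higher than the other regions by 3.77 on the log2 scale (SE 0.12, edgeR adjusted p = 4.29e-45). Pdyn, the dynorphin precursor, stood at 318, 226, 129 and 184 CPM in the striatum and was higher there by 3.36 (SE 0.19, edgeR adjusted p = 4.94e-28). Outside the striatum Pdyn was called in the dentate granule layer, where granule cells are its known source, at 83.8, 33.6, 74.3 and 60.6 CPM (log2 difference 1.27, edgeR adjusted p = 0.00289). It was also called in layer 5 cortex at 69.9, 76.0, 61.5 and 49.5 CPM (1.26). Neither of those calls held when regions were assigned without smoothing over neighbouring spots (0.54, adjusted p = 0.233, and 0.37, adjusted p = 0.504), and the dentate difference was 1.15 without untrained 2 (adjusted p = 0.050). In CA3 Pdyn had 0 UMIs in trained 2, untrained 1 and untrained 2, where 3 counts would equal 8.76, 36.0 and 17.2 CPM. Pdyn in the hypothalamus stood at 27.1, 120.1, 33.8 and 57.1 CPM, and its call there (log2 difference 1.46) was lost without trained 2 (0.48, adjusted p = 0.164) and was 2.35 without trained 1.

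**Figure D1:**
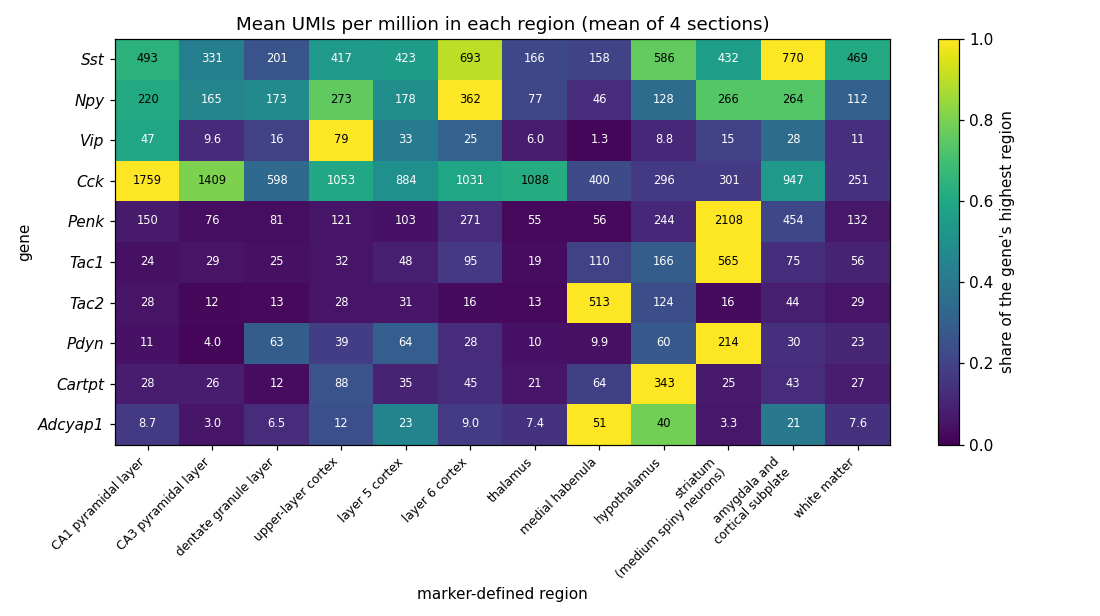
Mean level of each neuropeptide gene (rows) in the 12 marker-defined regions (columns), as CPM averaged over 4 sections; numbers are the means and colour is the share of the gene's own highest region. Penk, Tac1 and Pdyn peak in the striatum (2108, 565 and 214), Tac2 and Adcyap1 in the medial habenula (513 and 51.0), Cartpt in the hypothalamus (343), Cck in CA1 (1759) and Vip in upper-layer cortex (79.4), while Sst and Npy are spread over many regions.

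Among the 12 compared regions Tac2, Adcyap1 and Cartpt were highest on average in the habenula or the hypothalamus. Tac2, the neurokinin B precursor, stood at 551, 385, 469 and 649 CPM in the medial habenula. The next region, the hypothalamus, held 64.1, 268, 98.9 and 65.6 CPM, below every habenular value. The other regions averaged between 11.6 and 44.0 CPM. Tac2 was higher in the habenula than in the other regions by 4.38 on the log2 scale (SE 0.21, edgeR adjusted p = 1.74e-31) and in the hypothalamus by 2.33 (SE 0.18), which fell to 1.37 without trained 2 (adjusted p = 2.95e-08). The high hypothalamic value of trained 2 came with 22 spots of at least 5 Tac2 UMIs, 1 of which held 105. That section held 738 Tac2 UMIs in all.

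Adcyap1 encodes PACAP, a peptide related to VIP. Its counts were low, between 64 and 164 UMIs per section, and it stood at 54.7, 25, 46.9 and 77.4 CPM in the medial habenula. These values rest on 14, 5, 2 and 13 UMIs, so that the one of untrained 1 is under the level of 3 counts (70.3 CPM), and 5 of the 13 UMIs of untrained 2 lay in 1 spot. In the hypothalamus Adcyap1 was at 30.8, 49.1, 33.8 and 47.1 CPM, which overlapped the habenula. Both regions were above the others, by 2.50 (SE 0.36, edgeR adjusted p = 5.55e-08) and 2.29 (SE 0.21, edgeR adjusted p = 1.65e-15) on the log2 scale. Its calls in layer 5 cortex (0.96) and in the amygdala and cortical subplate (1.11) were lost without smoothing of the regions (0.34, adjusted p = 0.689, and 0.06, adjusted p = 0.967). Without trained 1 they were lost too (0.76, adjusted p = 0.255, and 0.73, adjusted p = 0.371), as they were without trained 2 (1.03, adjusted p = 0.144, and 0.96, adjusted p = 0.061).

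Cartpt encodes CART, a peptide of hypothalamic feeding circuits. It stood at 96.2, 596, 239 and 439.5 CPM in the hypothalamus and was higher there than in the other compared regions by 3.39 on the log2 scale (SE 0.13, edgeR adjusted p = 5.71e-38). Trained 1 was the lowest, and in that section upper-layer cortex was higher, at 101 CPM. The ependymal spots, which were not compared, stood at 111 CPM in trained 1 and 622 CPM in trained 2. Upper-layer cortex was the other region called, with 101, 118, 57.2 and 75.1 CPM (log2 difference 1.40, edgeR adjusted p = 1.41e-07). At 500 UMIs per spot, 3.85%, 17.9%, 9.35% and 14.9% of hypothalamic spots held a Cartpt UMI, against 0.529%, 1.11%, 1.90% and 1.67% of thalamic spots. The exact 95% intervals of the hypothalamic shares of trained 1 (1.94% to 6.78%) and trained 2 (14.7% to 21.5%) did not overlap. The share in the hypothalamus therefore varied among sections in the same order as the level.

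**Figure D2:**
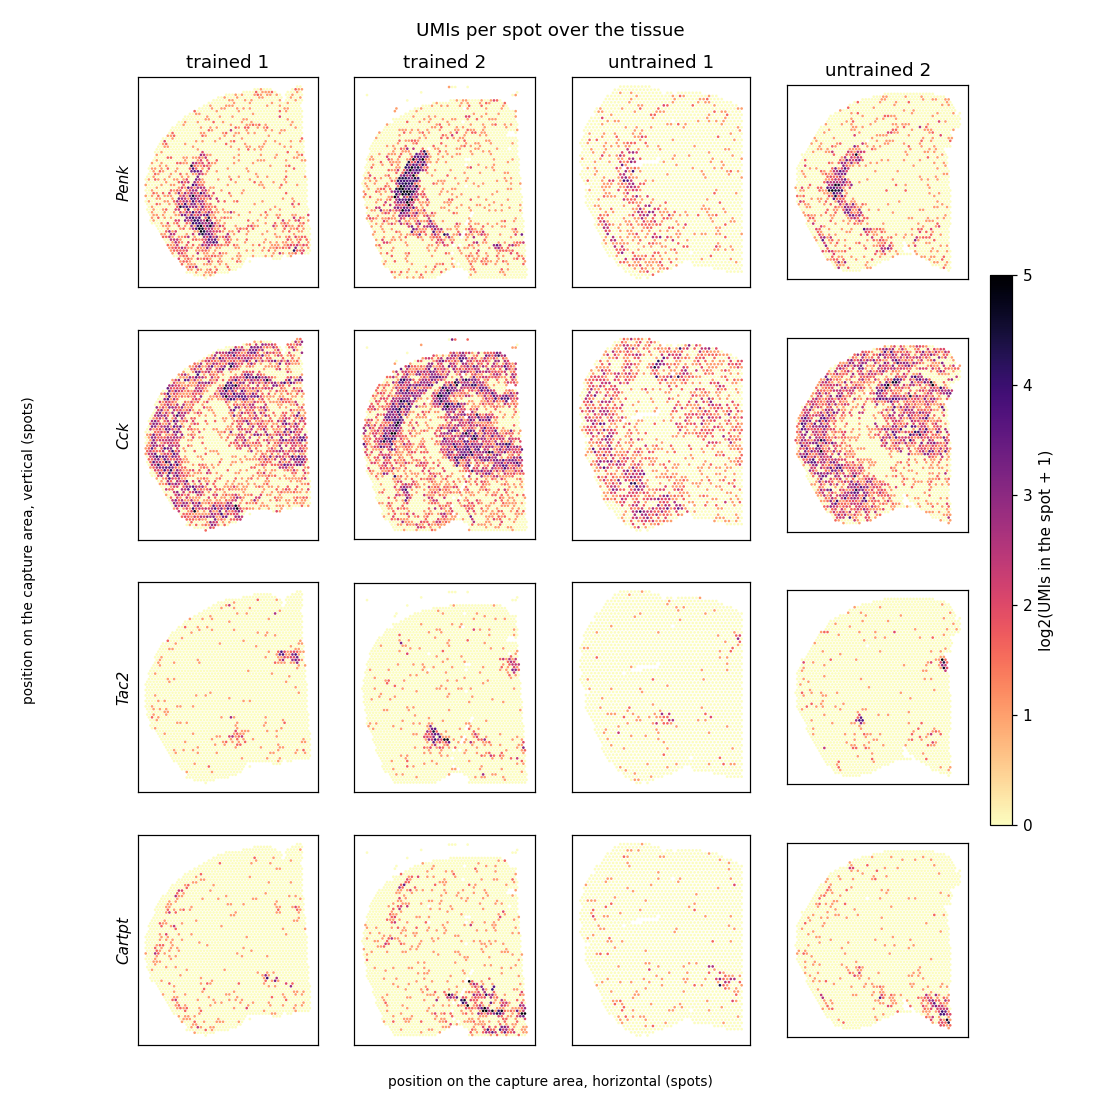
UMIs per spot of Penk, Cck, Tac2 and Cartpt (rows) in the 4 sections (columns), drawn at the spot positions on the capture area; colour is log2(UMIs + 1). Penk fills the striatum (1495 to 2432 CPM), Cck the cortex, pyramidal layers and thalamus, Tac2 a small habenular cluster (385 to 649), and Cartpt the hypothalamus, where trained 1 is pale (96.2).

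Cck, the cholecystokinin precursor, was high across the pyramidal layers, the cortex and the thalamus. It stood at 1997, 1660.4, 1389 and 1989.5 CPM in the CA1 pyramidal layer, at 1551, 1349, 1330.5 and 1408 CPM in CA3, and at 1114, 1063, 929 and 1247 CPM in the thalamus. CA1 and CA3 overlapped, while every CA3 value lay above every thalamic value. Cck was higher than in the other regions by 1.5 in CA1 (SE 0.09, edgeR adjusted p = 7.41e-26), by 1.11 in CA3 (SE 0.10) and by 0.72 in the thalamus (SE 0.08), on the log2 scale. Upper-layer cortex (0.66), layer 6 (0.62), the amygdala and cortical subplate (0.52) and layer 5 (0.39) were called as well. The layer 5 call was lost without the section block (0.38, adjusted p = 0.064) and without trained 1 (0.30, adjusted p = 0.116). Cck was lowest in the striatum, hypothalamus and white matter, with means between 251 and 301 CPM. Its pattern over the 48 sums was most like those of Sprn (Pearson r = 0.86), Slc17a7, the vesicular glutamate transporter of cortical neurons (r = 0.85), and Lingo1 (r = 0.84).

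Sst, the somatostatin precursor, was spread over cortex, amygdala and hypothalamus. On average over the 4 sections it was highest in the amygdala and cortical subplate, at 627, 507, 995 and 949.8 CPM (log2 difference 1.16, SE 0.14, edgeR adjusted p = 5.72e-10). In layer 6 cortex Sst was at 795, 417, 772 and 789 CPM (0.87, edgeR adjusted p = 1.38e-06), which overlapped the amygdala. It was lowest in the dentate granule layer, thalamus and medial habenula, with means between 158 and 201 CPM. In CA1 Sst was at 346, 845, 379 and 403 CPM, with trained 2 above the rest. In that section 16 CA1 spots held at least 5 Sst UMIs, against 2, 2 and 5 in the other sections. Its CA1 spots were also highest in GABA neuron markers (714, 1034, 644 and 696 CPM), astrocyte markers (855, 1468, 1003 and 791) and white matter markers (3030, 4481, 3042 and 3457). In CA1 markers (942, 856, 847 and 914) they did not stand apart. The part of these markers in the Sst level was not tested. Sst was called in CA1 (0.57, edgeR adjusted p = 0.0141), but was -0.06 without trained 2, and DESeq2 did not call it (adjusted p = 0.235). The call in the white matter (0.56) likewise was lost without trained 2 (0.22, adjusted p = 0.343) and with DESeq2 (adjusted p = 0.178), and that in the hypothalamus (0.60) without untrained 2 (0.33, adjusted p = 0.115).

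Npy, the neuropeptide Y precursor, was highest in layer 6 cortex on average over the 4 sections, at 364, 269, 437 and 376 CPM (log2 difference 1.12, SE 0.17, edgeR adjusted p = 1.24e-07). Upper-layer cortex was called too, at 332, 313, 183 and 263 CPM (0.82), as was the striatum at 216, 180.2, 241 and 425 CPM (0.70), where Npy is known from sparse interneurons. Upper-layer cortex was above layer 6 in trained 2, and the striatum was in untrained 2. With DESeq2 these calls had adjusted p = 0.055 and 0.057. The medial habenula held the least on average, at 39.1, 50.0, 46.9 and 47.6 CPM from 10, 10, 2 and 8 UMIs, of which the value of untrained 1 is under its level of 3 counts (70.3 CPM). In the amygdala and cortical subplate Npy was called at 0.67, a call lost with DESeq2 (adjusted p = 0.089), without smoothing (adjusted p = 0.102), and without trained 1 or untrained 1 (adjusted p = 0.082 and 0.115).

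Vip, which marks interneurons that mainly inhibit other interneurons, was concentrated in the upper cortical layers, at 99.3, 82.7, 76.9 and 58.4 CPM. It was called there at 2.58 on the log2 scale (SE 0.20, edgeR adjusted p = 8.61e-19), in CA1 at 1.71 (50.1, 43.1, 74.5 and 19.8 CPM) and in layer 5 at 1.63 (41.1, 54.4, 12.3 and 22.5 CPM). Among the 12 compared regions upper-layer cortex was the highest for Vip in all 4 sections, although its range overlapped that of CA1. The layer 5 value of untrained 1 is 1 UMI, under its level of 3 counts (36.9 CPM). In the medial habenula Vip had 0 UMIs in trained 1, untrained 1 and untrained 2, where 3 counts would equal 11.7, 70.3 and 17.9 CPM. At 500 UMIs per spot, 6.90%, 5.83%, 4.76% and 1.69% of upper-layer spots held a Vip UMI, against 0.265%, 0%, 0.952% and 0.333% of thalamic spots. The value of trained 2 was 0 of 451 thalamic spots, where 3 counts would equal 0.665%.

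Counted by region, 41 of the 120 pairs of member and region were called higher than the other regions by edgeR at an adjusted p under 0.05, and each count is set beside the percent of all 8518 tested genes called higher in that region. The hypothalamus had 7 of 10 members (14.9% of all genes): Sst, Penk, Tac1, Tac2, Pdyn, Cartpt and Adcyap1. Layer 6 cortex had 6 (8.38%): Sst, Npy, Vip, Cck, Penk and Tac1. The amygdala and cortical subplate had 6 (5.24%): Sst, Npy, Vip, Cck, Penk and Adcyap1. The striatum had 4 (10.4%): Npy, Penk, Tac1 and Pdyn. Upper-layer cortex had 4 (11.6%) and layer 5 had 4 (7.89%). The CA1 pyramidal layer had 3 (7.36%): Sst, Vip and Cck. The medial habenula had 3 (6.37%): Tac1, Tac2 and Adcyap1. The other 4 regions had 1 each, near their backgrounds: Cck in CA3 (7.56%), Pdyn in the dentate granule layer (9.94%), Cck in the thalamus (17.7%) and Sst in the white matter (15.7%). The Tac1 and Vip calls in layer 6 were lost without smoothing (0.29, adjusted p = 0.381, and 0.17, adjusted p = 0.818), and so were Tac1 in the habenula (0.44, adjusted p = 0.357) and Vip in the amygdala and cortical subplate (0.64, adjusted p = 0.205). DESeq2 did not call Tac1 or Vip in layer 6 (adjusted p = 0.058 and 0.131). Single sections decided some of these calls: Tac1 in layer 6 was 0.65 without trained 2 (adjusted p = 0.071), Vip in layer 6 was 0.55 without trained 1 and 0.83 without untrained 2 (adjusted p = 0.481 and 0.076), Tac1 in the habenula was 0.59 without trained 1 and 0.73 without untrained 2 (adjusted p = 0.360 and 0.098), and Vip in the amygdala and cortical subplate was 0.89 without untrained 2 (adjusted p = 0.270).

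Members also differed in what they shared spots with. At 500 UMIs per spot, Tac1 was present in 8.40%, 14.6%, 11.3% and 10.3% of spots with a Penk UMI and in 3.25%, 3.38%, 3.83% and 3.15% of spots without one. Within the striatum alone the same shares were 22.2%, 30.1%, 34.4% and 24.5% with Penk against 17.7%, 27.0%, 23.1% and 21.4% without. The gap was narrower inside the region in 3 sections and wider in untrained 1. Npy was present in 16.2%, 13.8%, 7.29% and 14.0% of spots with an Sst UMI and in 7.03%, 6.94%, 6.47% and 7.58% of those without. The gap for Npy was smallest in untrained 1, the shallowest section. In the cortex of that section the order turned, with 4.76% of Sst spots and 10.9% of others holding Npy, from 3 spots that held both. It also turned in the hippocampal spots of untrained 1 (3.33% against 5.49%) and untrained 2 (2.44% against 10.6%), each from 1 spot that held both.

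Over the 48 sums of region and section, the members most alike were Penk and Tac1 (r = 0.76), Tac2 and Adcyap1 (r = 0.70) and Sst and Npy (r = 0.62), and the least alike were Cck and Tac1 (r = -0.63). The sums share libraries, and the correlations are a description over 10731 genes. Penk was most like Adcy5 (r = 0.85). Npy was most like Cort, the cortistatin precursor (r = 0.79), Junb (r = 0.76) and Kcnh3 (r = 0.76). Sst was most like Sema3a and the vesicular GABA transporter Slc32a1 (both r = 0.69), Vip like Slitrk1 (r = 0.75), Tac2 like Sncg (r = 0.79), Pdyn like Gsg1l (r = 0.66), Cartpt like 6330403K07Rik (r = 0.78) and Adcyap1 like Tmem130 (r = 0.74).

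The comparison of trained with untrained mice asks whether avoidance training left a lasting difference in these genes. Only trained mice met an active shock zone, so that learning and foot shock cannot be told apart. Over whole sections no member was called by edgeR (0 of 10, beside 0.0145% of 13810 genes) or by DESeq2. In edgeR 3 members had an unadjusted p under 0.05, a count for which the share of all genes is not given. Pdyn stood at 54.9 and 56.6 CPM in trained and 36.5 and 36.2 CPM in untrained sections. The groups did not overlap, and the log2 difference was 0.54 (SE 0.12, edgeR adjusted p = 0.393). Penk stood at 346 and 306 CPM against 259 and 234 CPM, again without overlap (0.33, SE 0.13, edgeR adjusted p = 0.594). With 1 section left out the Penk difference was 0.17 (without trained 1) to 0.47 (without trained 2). The striatal spots numbered 192 and 171 in trained and 78 and 84 in untrained sections, and the 8 striatal markers summed to 531 and 599 against 412 and 388 CPM. Their part in the Pdyn and Penk differences was not tested. With every region given the same weight, Pdyn was at 60.5 and 48.8 against 38.0 and 37.9 CPM and Penk at 375 and 318 against 290.0 and 299.9 CPM.

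Sst stood at 452 and 343 CPM in trained and 577 and 556 CPM in untrained sections. These did not overlap, and the log2 difference was -0.58 (SE 0.16, edgeR adjusted p = 0.525), and -0.35 without trained 2. The amygdala and cortical subplate, where Sst was highest on average over the 4 sections, covered 131 and 79 spots in trained and 261 and 264 in untrained sections, and 9 GABA neuron markers summed to 1207 and 1366 against 994 and 895 CPM with none at 0. Their part was not tested. With equal weight per region Sst was at 396 and 372 against 473 and 473 CPM. The other members overlapped between groups: Npy was at 197 and 153 against 168 and 223 CPM, Vip at 34.4 and 19.3 against 34.3 and 24.9, Cck at 849 and 719 against 786 and 871, Tac1 at 82.3 and 116 against 93.3 and 88.9, Tac2 at 48.5 and 71.4 against 44.9 and 52.9, and Cartpt at 50.1 and 149 against 69.1 and 80.5. Adcyap1, at 16.3 and 15.9 against 18.0 and 17.0 CPM, did not overlap, with a log2 difference of -0.20 (95% interval -0.60 to 0.21). With 2 sections per group an exact permutation test cannot give a two-sided p below 0.333. A lack of overlap is therefore frequent also for genes that do not differ. The share of all genes without overlap is not given here.

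**Figure D3:**
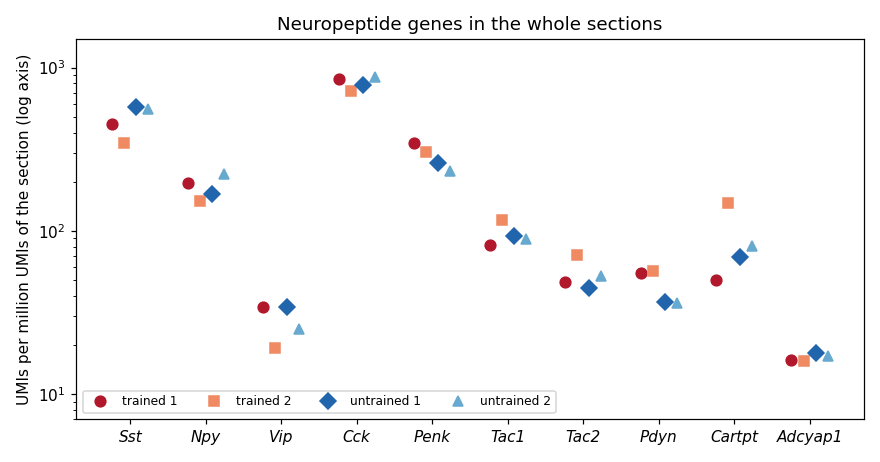
Level of each gene in the 4 whole sections, as CPM on a log axis; each point is 1 section, red and orange for trained and blue for untrained. Sst lies lower in both trained sections (343 and 452 against 556 and 577), Pdyn and Penk lie higher, and Cartpt of trained 2 (149) stands above the other 3 sections.

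Some of these differences moved with single sections. Without trained 1 the whole-section log2 differences of Sst, Npy, Vip, Pdyn and Cartpt were -0.86, -0.49, -0.73, 0.50 and 0.85. Without trained 2 that of Cartpt was -0.61, in the other direction. In these fits the lone section of a group is assumed to vary like the 2 sections of the other group. With no filter on low counts Sst (-0.57, adjusted p = 0.00202) and Pdyn (0.55, adjusted p = 0.0241) were called. The share of spots with a UMI at 500 UMIs was 17.4% and 13.4% against 21.1% and 20% for Sst and 2.42% and 2.58% against 2.03% and 1.36% for Pdyn; before thinning it was 42.7% and 40.9% against 39.5% and 45.5% for Sst.

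In the hippocampal spots, the tissue named by the labels, no member of the 9 tested was called by edgeR (0% of 9047 genes) or DESeq2, and 1 had an unadjusted p under 0.05. Npy stood at 221 and 237 CPM in trained and 94.4 and 208 CPM in untrained sections (log2 difference 0.50, 95% interval -0.02 to 1.02). The groups did not overlap, and the difference was 0.14 without untrained 1 and 1.23 without untrained 2. With regions assigned without smoothing its sign turned (-0.055). Penk stood at 92.6 and 77.3 against 146 and 101 CPM, also without overlap (-0.51, SE 0.23, edgeR adjusted p = 0.947), but the difference was -0.021 without smoothing, and -0.83 (without untrained 2) to -0.26 (without untrained 1) with 1 section left out. Sst stood at 286 and 478 against 313 and 315 CPM, with trained 2 high and trained 1 low. Without trained 1 the log2 difference of Sst was 0.61, and without trained 2 it was -0.18. Cck stood at 1349 and 1200.3 against 1132 and 1306 CPM (0.04, 95% interval -0.27 to 0.36). Pdyn stood at 44.9 and 9.53 against 27.0 and 27.4 CPM, with both extremes in the trained group. Adcyap1 had too few counts to be tested.

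In the cortical spots no member of the 10 was called by edgeR (0% of 11140 genes) or DESeq2, with 0 at an unadjusted p under 0.05. Cck stood at 1104 and 958 against 814 and 1058 CPM, Sst at 608 and 382 against 510.5 and 521 CPM, and Vip at 64.6 and 45 against 58.5 and 39.9 CPM. All 3 overlapped between groups. The widest intervals were those of Adcyap1 (-0.95 to 0.93) and Tac2 (-0.54 to 0.80), so that differences of nearly 2-fold could not be seen there. On simulated counts of the whole-section comparison, the test recovered 11.2% of 2-fold and 94.3% of 4-fold changes.

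Within single regions 3 pairs of member and region were called, all lower in trained sections. The thalamus had 1 of 6 tested members called (0.0109% of all genes), which was Sst. It stood at 99.8 and 95.9 CPM in trained and 289 and 179 CPM in untrained sections. The groups did not overlap (log2 difference -1.28, SE 0.20, edgeR adjusted p = 0.0121). The call was lost without untrained 1 (-0.94, adjusted p = 0.052) and with DESeq2 (adjusted p = 0.268). In thalamic spots that touched no other region Sst was at 92.5 and 70.1 against 321 and 141 CPM. The 9 GABA neuron markers summed to 739, 866, 661 and 711 CPM in the thalamus, with 2 markers at 0 in trained 1 and 1 in untrained 2. Untrained 1 was the highest section there for every member but Cck and Adcyap1, with Npy at 46.0, 81.1, 106 and 73.3 CPM and Tac1 at 12.3, 10.2, 38.4 and 16.9 CPM. Some of its values rest on few UMIs (4 for Vip and 4 for Pdyn). Cck was lowest in untrained 1 (1114, 1063, 929 and 1247 CPM). The part of these differences in the Sst call was not tested.

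The hypothalamus had 2 of 9 tested members called (0.109% of all genes). Sst stood at 438 and 355 CPM in trained and 663 and 886 CPM in untrained sections, without overlap (-1.05, SE 0.19, edgeR adjusted p = 0.0267). The call was lost without untrained 2 (-0.83, adjusted p = 0.060) and without smoothing of regions (-0.99, adjusted p = 0.076). Npy, a product of arcuate neurons that also make Agrp, stood at 59.2 and 60.6 CPM against 88.5 and 305 CPM (-1.89, SE 0.32, edgeR adjusted p = 0.0178). Untrained 2 stood apart, and without it the difference was -0.65 (adjusted p = 0.631); with DESeq2 the call was lost as well. In that section 11 hypothalamic spots held at least 5 Npy UMIs. Neither hypothalamic call held with the replicate number as a block.

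The sections differed in the other peptide genes of the hypothalamic spots. Agrp had 0, 5, 0 and 25 UMIs in the hypothalamic spots, the most in untrained 2. Hcrt, the orexin precursor of the lateral hypothalamus, had 2, 5049, 207 and 133 UMIs. Pmch, the precursor of melanin-concentrating hormone, stood at 379.8, 6072, 3684 and 2683 CPM. Trained 1 thus was lowest for both Hcrt and Pmch, and trained 2 highest. Away from spots with an Agrp UMI, Npy was at 59.2 and 54.6 against 88.5 and 213 CPM, and Sst at 438 and 333 against 663 and 847 CPM. The 9 GABA neuron markers summed to 1849, 1497, 1423 and 1186 CPM in the hypothalamus, none at 0. The part of these differences in the Sst and Npy calls was not tested.

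**Figure D4:**
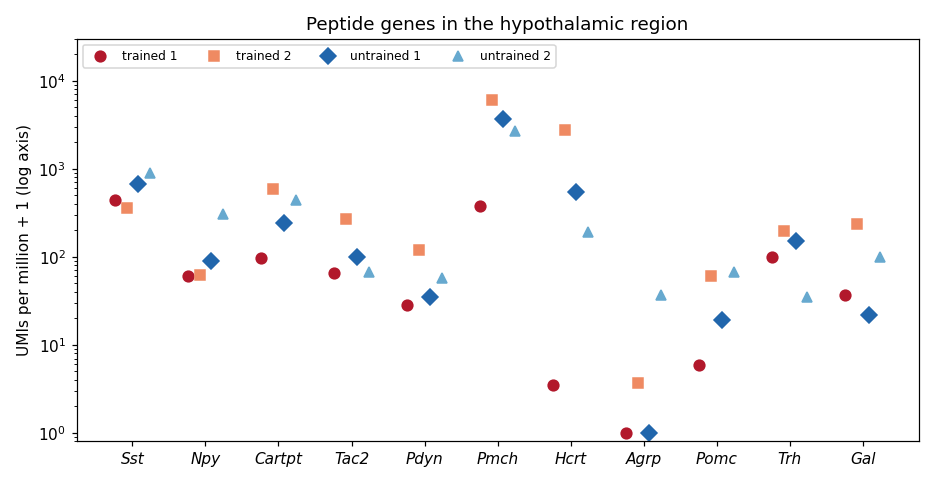
Level of 5 members and 6 other peptide precursors in the hypothalamic spots of each section, as CPM + 1 on a log axis; each point is 1 section. Npy of untrained 2 (305) stands above the other 3 sections (59.2 to 88.5), Agrp is highest in the same section (35.7), and Hcrt runs from 2.47 in trained 1 to 2756 in trained 2.

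In the other 10 regions no member was called by edgeR at an adjusted p under 0.05. The numbers of members tested were 5 in CA1 (0.041% of all genes called), 4 in CA3 (0.0885%), 5 in the dentate granule layer (0%), 9 in upper-layer cortex (0%), 10 in layer 5 (0%), 8 in layer 6 (0%), 7 in the medial habenula (0%), 6 in the striatum (0%), 9 in the amygdala and cortical subplate (0.0133%) and 5 in the white matter (0%). Across the 12 regions DESeq2 called 1 pair, Sst in the hypothalamus. Unadjusted p-values under 0.05 were seen for 2 members in CA1, 1 each in upper-layer cortex, layer 5 and layer 6, 2 in the habenula, 3 in the striatum, 3 in the amygdala and cortical subplate and 2 in the white matter, with 0 in CA3 and the dentate granule layer. Among them Npy in the striatum was at 216 and 180.2 against 241 and 425 CPM (-0.88, edgeR adjusted p = 0.227). Sst in the amygdala and cortical subplate was at 627 and 507 against 995 and 949.8 CPM (-0.71, edgeR adjusted p = 0.252), and Penk there at 666 and 443 against 404 and 304 CPM (0.75, edgeR adjusted p = 0.348). Pdyn in the striatum was at 318 and 226 against 129 and 184 CPM (0.68, SE 0.26, edgeR adjusted p = 0.603). None of these 4 pairs overlapped between groups, but they were taken from those with an unadjusted p under 0.05, which favours such separation. Within the striatal spots the 8 striatal markers summed to 3885 and 4866 CPM in trained and 2620 and 3584 CPM in untrained sections, which did not overlap either. In the amygdala and cortical subplate the 79 spots of trained 2 stood apart, with white matter markers at 5867 CPM against 1896 to 2578 in the other sections, blood markers at 1899 against 446 to 623, and thalamic markers at 708 against 247 to 360. The part of these markers in the differences was not tested.

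**Figure D5:**
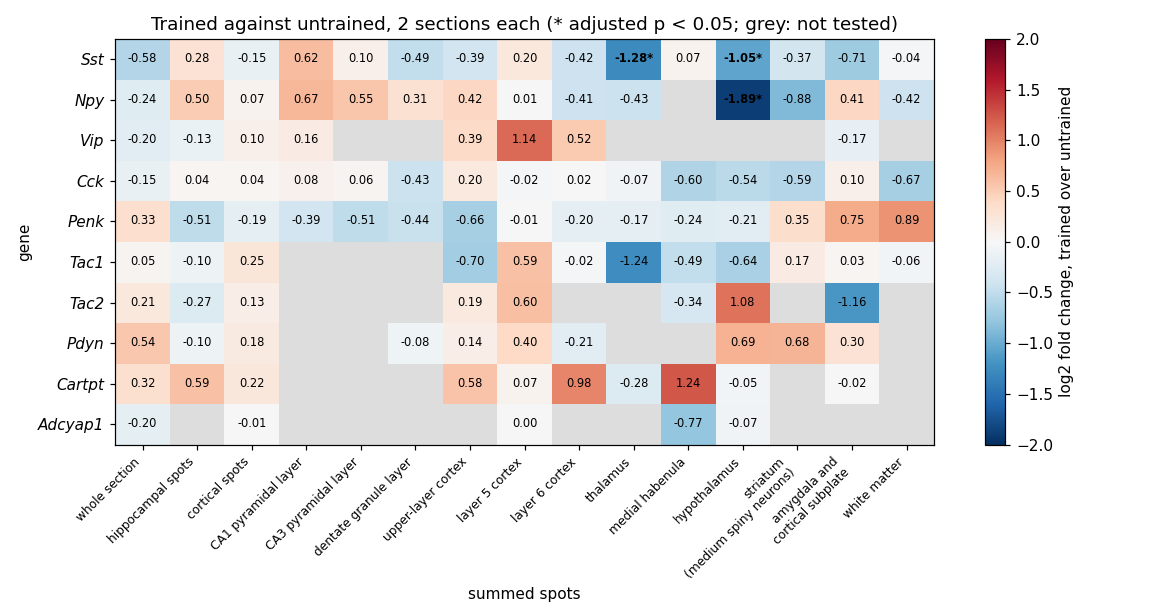
Log2 difference of trained over untrained sections for each gene (rows) in the whole section, the hippocampal and cortical spots and the 12 regions (columns), from edgeR with 2 sections per group; an asterisk marks an adjusted p under 0.05 and grey a gene not tested there. The 3 marked cells are Sst in the thalamus (-1.28) and Sst and Npy in the hypothalamus (-1.05 and -1.89).

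The receptors of these peptides and the genes that process them were read from fixed lists. Of 19 receptor genes, 14 were tested over whole sections and 0 were called with training by edgeR in either direction, with 2 at an unadjusted p under 0.05 (Cckbr -0.56 and Sstr3 -0.65) and a list median of -0.10 on the log2 scale beside 0.01 over all genes tested. Of 13 processing and dense-core vesicle genes 13 were tested and 0 called, with 0 at an unadjusted p under 0.05 and a median of 0.03. Of 13 other neuropeptide precursors 12 were tested and 0 called, with 1 at an unadjusted p under 0.05 (Gal 1.45) and a median of 0.02. The members' own median was -0.05. In the hippocampal spots 4, 12 and 4 genes of the lists were tested and 0 called, and in the cortical spots 9, 13 and 11 with 0 called.

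Levels of these genes are given as a description, by the region with the highest mean. Npy2r was highest in CA3 (mean 94.6 CPM, range 72.7 to 132), where Npy itself averaged 165 CPM. Npy1r was highest in the dentate granule layer (38.3) and Sstr2 in layer 6 cortex (60.1), a region where Sst was also called. Cckbr was highest in layer 6 cortex (65.1), Vipr2 in the thalamus (26.7), Adcyap1r1, the PACAP receptor, in the hypothalamus (144), Tacr1, the substance P receptor, in the medial habenula (22.2) and Tacr3, the neurokinin B receptor, in the hypothalamus (16.5). The habenular Tacr1 values ran from 17.9 to 27.4 CPM, so the one of untrained 1 is under its level of 3 counts (70.3 CPM). Oprm1 and Sstr4 had 1 UMI each and Tacr2 0 over the 4 sections. Among processing genes, Pcsk1n, an inhibitor of prohormone convertase 1, was highest in the hypothalamus (2350.0), as were Scg2 (666), Chga (263), Vgf (243) and Pam (168), while Cpe and Chgb were highest in CA3 (3106 and 1062).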

How the data were processed

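Visium libraries of 4 sections were analysed, with each section as a replicate (2 trained, 2 untrained, grouped by title). Per the labels and file headers the deposited values are raw UMI counts per gene and spot. The authors' methods name Space Ranger with mm10, the header of the count files gives spaceranger 1.2.2, and the submitters' processing notes list Cell Ranger 8, STAR and mm39, so that the build behind the counts is not settled; coordinates here are those of GRCm38. The members and the gene lists were chosen with earlier results of these data known. Named were the 10 members, the 3 lists (receptors, processing and dense-core vesicles, other precursors) and, for each member, the 3 genes most correlated with it over region sums among genes with at least 200 UMIs. Not every gene so named is reported here.

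Marker scores were averaged over each spot and its 6 neighbours in 2 rounds, scaled to each section's 98th percentile, and a spot took its highest region if the score was at least 0.25, in patches of at least 10 spots. Of 15 regions, choroid plexus, ependyma and meninges were not compared. Summed counts were tested with edgeR 4.0.16 in R 4.3.3 (filterByExpr, TMM, quasi-likelihood, Benjamini-Hochberg over all genes tested, threshold 0.05), trained against untrained with 2 sections each, and each region against the mean of the others with the section as a block. Alternatives were DESeq2 1.42.0, no filter, dominant genes left out, thinned sums, no smoothing, no section block, the replicate number as a block and each section left out. A test of the training difference of 1 region against that of the others, equal weights per region, and spots away from region edges were added after seeing the data. Thinning to 500 UMIs, and sums, used Python 3.11.15. Exact 95% binomial intervals and the floor of 3 counts cover counting error only. The 4 sections shared 1353 to 2413 spot barcodes per pair, which are fixed by the slide. The edgeR step was tested on simulated data.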

Additional observations from a re-analysis of the deposited data

Results flagged for a closer look

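The training difference of Npy in the hypothalamus stood out from that in the other regions. A single edgeR fit took in all region sums, blocked by section, and in it the log2 difference of trained over untrained in the hypothalamus minus that in the other regions was -1.91 (SE 0.27, adjusted p = 1.22e-06), 1 of 2 genes called among 9355. The region sums of a section come from 1 mouse, so this p rests on 2 mice against 2 and is too small as a measure over mice. The levels were 59.2 and 60.6 CPM in trained and 88.5 and 305 CPM in untrained sections. Without untrained 2 the difference between regions was -1.10 (adjusted p = 0.563), and without any other single section it was -2.27 to -1.89. The test was added after seeing the data. The same test gave -0.84 (adjusted p = 0.335) for Sst in the hypothalamus.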

How the results depend on the processing

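Of 328 alternative values for the 41 calls of a member above the other regions, 288 kept direction and call, 39 kept direction only and 1 reversed (Sst in CA1, -0.064 without trained 2, and up to 0.74 without another section). The number of such calls was 41, and 33 to 46 under the alternatives. The training counts below with 1 section left out come from fits with a lone section in 1 group. They have no percent of all tested genes beside them, and are not read as results about the members. The number of members called with training over whole sections was 0, but 2 with no filter and 0 to 5 with 1 section left out. In the hippocampal spots it was 0 to 1 with 1 section left out, and in the cortical spots 0 throughout. Over single regions 3 pairs were called, but 1 with DESeq2, 1 with the replicate block, and 3 to 12 with 1 section left out. Over all genes 18 such pairs were called, 7 with DESeq2, 149 with the replicate block, and 624, 101, 90 and 129 without trained 1, trained 2, untrained 1 and untrained 2, beside 12, 6, 5 and 3 of the members. Among all genes the whole-section count of 2 became 21 with DESeq2, 211 with no filter, 7 with thinned sums, 47 with the replicate block and 848, 40, 2 and 8 without trained 1, trained 2, untrained 1 and untrained 2. The hippocampal count of 0 became at most 9 under the planned settings and 3 to 147 with 1 section left out, and the cortical count of 0 became at most 73 (replicate block) and 1 to 129.

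The labels give the replicate as a number only, and do not say what sections of the same number share. Deviations of same-numbered sections correlated at 0.02, 0.01 and 0.12 in the whole, hippocampal and cortical sums. With the replicate block no member was called in these 3 sums, Sst in the thalamus stayed called (-1.25, adjusted p = 1.45e-09), and Sst and Npy in the hypothalamus were not (-1.05, adjusted p = 0.115, and -1.85, adjusted p = 0.098).

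Some differences changed sign, and the cause was not tested. With 1 section left out the whole-section log2 differences ran from -0.73 to 0.22 for Vip, -0.34 to 0.0093 for Cck, -0.17 to 0.22 for Tac1, -0.052 to 0.40 for Tac2 and -0.61 to 0.85 for Cartpt. The hippocampal ones ran from -0.18 to 0.61 for Sst, -0.93 to 0.63 for Vip, -0.036 to 0.12 for Cck, -0.29 to 0.019 for Tac1, -1.49 to 0.68 for Pdyn and -0.13 to 1.2 for Cartpt. The cortical ones ran from -0.63 to 0.21 for Sst, -0.19 to 0.29 for Npy, -0.27 to 0.42 for Vip, -0.17 to 0.24 for Cck, -0.64 to 0.34 for Penk, -0.38 to 0.89 for Tac1, -0.25 to 0.47 for Tac2, -0.057 to 0.36 for Pdyn and -0.54 to 0.42 for Adcyap1. Without smoothing the hippocampal values were -0.46 for Sst, -0.055 for Npy and 0.17 for Pdyn, and the cortical ones -0.056 for Npy, -0.036 for Cck, -0.12 for Tac1, -0.058 for Tac2 and 0.0091 for Adcyap1. With thinned sums Tac1 was 0.21 in the hippocampal spots, and in the cortical spots Vip was -0.0011, Cck -0.0092 and Tac1 -0.093. With no filter cortical Adcyap1 was 0.015. The 20 shares of spots all moved with the depth per spot or the UMI threshold. Depth limited Adcyap1, Vip, Tac2 and Pdyn most, with 64, 122, 160 and 130 UMIs in untrained 1.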

Other observations

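Among the other neuropeptide precursors, 7 of 13 were highest in the hypothalamic spots. Pnoc, the nociceptin precursor, averaged 53.6 CPM there (range 39.5 to 72.8 over the 4 sections), the narrowest range among these 7 genes in relative terms. Nts, the neurotensin precursor, was highest in the amygdala and cortical subplate, at a mean of 56.3 CPM (36.7 to 105). Cort, a relative of somatostatin, was highest in layer 6 cortex, at 33.7 CPM (22.5 to 47.8), as were Nmb (23.2) and Grp (19.6), and Crh was highest in upper-layer cortex (12.3). In the hippocampal spots Cort had a log2 difference of 1.74 between trained and untrained sections (SE 0.54, edgeR adjusted p = 0.947).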
